A study of Mus musculus with 2 samples.

Results

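The genes described here are the Wnt ligands, the enzymes and carrier that prepare them for secretion, the Frizzled receptors, their co-receptors and the secreted Frizzled-related proteins. They were read across the cell classes of mouse prostate tissue with tumour lesions. The genes were chosen by symbol: every feature named Wnt with a number and an optional a or b, every Fzd with a number, Sfrp1 to Sfrp5, and Lrp5, Lrp6, Ror1, Ror2, Ryk, Porcn and Wls. This gave 40 of the 28000 features in the deposited matrices, made up of 19 ligands, 2 ligand-processing genes, 10 Frizzled receptors, 5 co-receptors and 4 secreted antagonists. The rule itself uses no measured value.

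Wnt proteins are lipid-modified signals that act over short distances. The acyltransferase Porcn attaches the lipid in the endoplasmic reticulum and Wls carries the modified protein to the cell surface, where it binds a Frizzled receptor. With Lrp5 or Lrp6 as co-receptor the signal stabilises β-catenin, which then turns on target genes with TCF and LEF factors in the nucleus, whereas Ror1, Ror2 and Ryk serve branches that do not need β-catenin. In the prostate, stromal and epithelial cells exchange these signals during development, and secreted Frizzled-related proteins of the Sfrp family bind ligands or receptors outside the cell and limit them.

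Prostate tissue of 2 genotypes was dissociated and profiled with 10x Genomics 3′ chemistry, and there was 1 library per genotype. The paper states that the DoubleTg tissue held high-grade intraepithelial neoplasia as well as cancer, and describes the TripleTg tissue as cancer. DoubleTg mice (hHGFtg:H11hMET/+:PBCre4) carry a ubiquitous human HGF transgene, hHGFtg, and, at the H11 locus, hMETtg, which encodes human MET under a CAG promoter and is silent until Cre removes a STOP cassette. TripleTg mice (hHGFtg:H11hMET/+:Ctnnb1L(Ex3)/+:PBCre4) carry both transgenes and, in addition, a conditional Ctnnb1 allele from which Cre removes the exon that targets β-catenin for degradation, so that β-catenin is stabilised. In both genotypes Cre comes from the PB-Cre4 line, whose probasin promoter is active in prostate epithelium, and the mice were of mixed C57BL/6 and C3H SCID background. The DoubleTg library is labelled prostatic adenocarcinoma and the TripleTg library prostatic carcinoma, and the age of the animals behind these 2 libraries is not given in the sources used here. Genotype, animal, lesion stage, tumour type and library therefore cannot be told apart, and no test across animals was possible. Each interval below is a 95% interval that covers counting error only.

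After the limits on genes and mitochondrial UMIs, the DoubleTg library held 10598 cells with 256880958 UMIs and the TripleTg library 9492 cells with 229655259 UMIs, with medians of 16761 and 20097 UMIs per cell, and 29 cell barcodes occurred in both. Clusters were named from marker genes, and the epithelial-like class held 7061 DoubleTg and 6653 TripleTg cells, the fibroblast-like class 532 and 638, the endothelial-like class 276 and 242, and the macrophage-like class 495 and 434. A fibroblast and smooth muscle-like class of 424 cells and a T and NK-like class of 438 cells were found in DoubleTg only, and a TripleTg cluster of 143 cells led by T cell genes such as Ccl5, Nkg7, Cd3g and Cd3d was left unnamed as mixed, with Epcam in 87.4% and Ptprc in 76.9% of its cells. Pbsn, a defining gene of prostate luminal cells, ranged from 31.1 to 12780 CPM between DoubleTg luminal-like clusters and from 0.346 to 45.4 CPM between TripleTg ones, which were named from the rest of the marker list. CPM here is a gene's UMIs scaled to the same total in every class. Ctnnb1 itself was at 315 CPM in DoubleTg and 225 CPM in TripleTg epithelial-like cells, but 3′ tags lie outside the deleted exon and check nothing about the allele. hMETtg was lower in TripleTg epithelial-like cells (430.5 against 40.1 CPM, log2 ratio -3.42), as was hHGFtg (358 against 74.3 CPM, -2.27).

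Markers of other cell types were read in each class, because their level sets how low levels can be read, and whether they come from free RNA or from doublets was not tested. None of the markers was at 0 in the classes given here. The 7 epithelial markers stood in immune-like cells at 24.6% of their epithelial level in DoubleTg (range over markers 23.8 to 27.9%) and at 12.5% in TripleTg (10.4 to 17.0%). The 9 fibroblast markers stood in epithelial-like cells at 1.18% of their stromal level in DoubleTg (0.0711 to 2.38%) and at 0.975% in TripleTg (0.158 to 2.66%). A member whose level outside its main class fell inside these ranges is read as background below. Exceptions are named where they occur.

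All 40 members had a position on GRCm38, and 4 pairs of them are direct neighbours. Wnt6 and Wnt10a lie on chromosome 1 with 6193 bases between them, and the other pairs are Wnt3a with Wnt9a (16175 bases) and Wnt3 with Wnt9b (24328 bases) on chromosome 11 and Wnt10b with Wnt1 on chromosome 15 (11706 bases). Promoter windows from RefSeq on GRCm38.p6, running from 250 bases before to 50 bases after a gene's start, were found for 27 of the 40 members, in 30 windows. They were searched on both strands for CTTTGAA or CTTTGAT and for CTTTGTA or CTTTGTT, forms of the TCF/LEF recognition sequence that share their first letters. One of these was present in 4 of the 30 member windows (Fzd7, Wnt5b, Wnt11 and Wnt3), or 13.3%, against 16.9% of all 32851 windows of this length. The windows of 3 members that were higher in TripleTg epithelial-like cells are shown: Wnt6, the ligand with the highest ratio, and Fzd10, the only Frizzled gene past the fold upwards, neither of which holds one of these letters, and the upstream window of Wnt11, where the capitals mark the match on the minus strand. All 3 genes are on the plus strand, and the windows are chr1:74771642-74771941, chr5:128600856-128601155 and chr7:98834862-98835161.
Wnt6: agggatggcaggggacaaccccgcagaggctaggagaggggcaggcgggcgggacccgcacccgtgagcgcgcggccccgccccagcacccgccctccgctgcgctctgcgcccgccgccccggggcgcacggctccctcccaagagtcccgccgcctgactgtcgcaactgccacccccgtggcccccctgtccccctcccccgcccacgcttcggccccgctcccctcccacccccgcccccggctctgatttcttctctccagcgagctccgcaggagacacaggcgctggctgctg
Fzd10: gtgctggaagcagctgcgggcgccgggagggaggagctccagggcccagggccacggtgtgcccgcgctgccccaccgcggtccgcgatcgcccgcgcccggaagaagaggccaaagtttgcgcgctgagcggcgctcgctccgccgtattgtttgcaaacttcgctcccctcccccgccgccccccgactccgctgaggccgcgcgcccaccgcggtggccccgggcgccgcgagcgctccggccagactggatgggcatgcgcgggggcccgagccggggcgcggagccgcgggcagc
Wnt11: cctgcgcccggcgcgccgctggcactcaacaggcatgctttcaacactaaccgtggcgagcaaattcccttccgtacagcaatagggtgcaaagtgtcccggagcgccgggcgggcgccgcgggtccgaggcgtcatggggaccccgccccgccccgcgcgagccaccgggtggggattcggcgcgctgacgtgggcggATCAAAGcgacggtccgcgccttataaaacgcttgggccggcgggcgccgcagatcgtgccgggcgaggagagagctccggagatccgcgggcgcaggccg

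In epithelial-like cells, several ligands that were scarce in DoubleTg were abundant in TripleTg, while most receptors and co-receptors differed by less than 2-fold. A gene was compared where it had at least 30 UMIs over both libraries in the class, and was counted as past the fold where the log2 ratio of its CPM, TripleTg over DoubleTg, was at least 1 or at most -1. Of the 40 members, 33 were compared, 13 were past the fold upwards, where 17.9% of the 16122 features compared were, and 3 downwards, where 15.4% were. The median log2 ratio of the 33 members was 0.41, and that of all features was -0.07. The members' median was 0.109 with every cell at 5000 UMIs, where that of all features was -0.16, and 0.233 with a floor of 100 UMIs, where it was -0.11. Of the 13 higher members, 7 had fewer than 30 DoubleTg UMIs and entered the comparison only through TripleTg, so these counts describe the members and are no test of them.

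Wnt6, a ligand of the β-catenin branch, had 80 UMIs in DoubleTg and 8219 in TripleTg epithelial-like cells, which is 0.349 and 40.1 CPM (log2 ratio 6.85, interval 6.53 to 7.18, and 6.11 with every cell at 5000 UMIs). A UMI of Wnt6 was found in 0.502% of DoubleTg and 34.2% of TripleTg luminal-like cells, and with every cell thinned to 5000 UMIs in 0.0628% and 12.6%. In immune-like cells, taken as the background, the shares were 0.292% and 2.70% before thinning, at median depths of 7505 and 10060 UMIs against 35423 and 25655 in luminal-like cells. The TripleTg share in luminal-like cells was thus well above that in immune-like cells, and the DoubleTg share was close to it.

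Wnt5a, best known for signalling without β-catenin, had 234 UMIs (1.02 CPM) in DoubleTg and 7388 UMIs (36.05 CPM) in TripleTg, a log2 ratio of 5.14 (4.96 to 5.34). Wnt11, of the same branch, went from 258 to 1424 UMIs and from 1.12 to 6.95 CPM (2.63, 2.44 to 2.82, and 1.76 at 5000 UMIs per cell). Its DoubleTg level, 1.43% of the stromal one, was inside the pooled range of the fibroblast markers. In DoubleTg luminal-like cells, however, its share, on 74 UMIs, was above that of the highest fibroblast marker there (0.389%). The DoubleTg level of Wnt11 is therefore not read as background. Wnt5a and Wnt11 were both higher in luminal-like and in basal-like cells. Wnt10a, the chromosomal neighbour of Wnt6, went from 3.71 to 11.7 CPM on 850 and 2399 UMIs (1.66, 1.55 to 1.77).

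Wnt4 and Wnt7b, ligands of developing epithelia, were already abundant in DoubleTg. Wnt4 was at 48.8 CPM in DoubleTg and 114 CPM in TripleTg, on 11188 and 23382 UMIs (1.23, 1.19 to 1.26). Wnt7b was at 28.9 and 84.1 CPM, on 6631 and 17228 UMIs (1.54, 1.499 to 1.58). They differed by far less than Wnt6 and Wnt5a, but on so many UMIs that their intervals were narrow. Wnt4 was found in 52.5% of DoubleTg and 82.0% of TripleTg luminal-like cells, against 5.35% and 8.11% of immune-like cells, and at 5000 UMIs per cell in 19.9% and 42.5% of luminal-like cells.

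Among the ligands with few UMIs, Wnt7a had 18 and 92 UMIs (2.52, 1.78 to 3.33) and Wnt16 had 24 and 55 (1.36, 0.64 to 2.12). Wnt2, a stromal ligand, had 22 and 215 UMIs (3.45, 2.82 to 4.16, and 2.02 at 5000 UMIs per cell), but its TripleTg level in epithelial-like cells was 0.9% of its fibroblast-like level, inside the range of the fibroblast markers, and is read as background. Wnt9a was the only ligand past the fold downwards, from 364 to 112 UMIs (-1.54, -1.86 to -1.23). Wnt5b (265 and 202 UMIs, -0.23) and Wnt10b (17 and 14 UMIs, -0.12) had intervals that include 0.

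The other 7 ligands were too scarce to compare in epithelial-like cells. Wnt1 had 7 UMIs in DoubleTg and 8 in TripleTg, Wnt2b 3 and 7, Wnt3 0 and 7, Wnt3a 0 and 1 and Wnt8a 1 and 0. Wnt8b and Wnt9b had 0 UMIs in every cell of both libraries, and 3 UMIs would be 0.0131 CPM of DoubleTg and 0.0146 CPM of TripleTg epithelial-like UMIs. These genes were not detectable or barely detectable at this depth.

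Of the genes that handle every ligand alike, Wls, the carrier to the cell surface, went from 62.8 to 125 CPM, on 14396 and 25640 UMIs (0.995, 0.97 to 1.02), just under the fold. Porcn, the acyltransferase, was at 2.93 and 3.04 CPM (0.05, -0.11 to 0.21). The carrier was therefore higher in TripleTg and the enzyme showed no difference beyond counting error.

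The Frizzled receptors differed in both directions. Fzd10 went from 11 UMIs to 262, or 0.0480 to 1.28 CPM (4.74, 3.87 to 5.76, and 3.84 at 5000 UMIs per cell), and was found in 0.121% of DoubleTg and 3.82% of TripleTg luminal-like cells, against 0 of 1029 DoubleTg immune-like cells, where the exact binomial upper limit is 0.358%, and 0.208% of TripleTg ones. Fzd4, known as a receptor of the vascular ligand Norrin as well as of Wnts, went from 1441 to 281 UMIs, or 6.28 to 1.37 CPM (-2.20, -2.39 to -2.01). Fzd9, with 59 and 23 UMIs, was the other one past the fold downwards (-1.20, -1.96 to -0.48).

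With all UMIs the other 7 Frizzled genes were within the fold, but Fzd8 was past it downwards with every cell at 5000 UMIs (-1.07). Fzd7 (2.89 and 4.31 CPM, 0.58) and Fzd3 (8.53 and 11.4 CPM, 0.41) were higher in TripleTg. Fzd5, an epithelial receptor, was at 15.5 and 9.36 CPM (-0.72, -0.80 to -0.64), Fzd8 at 2.43 and 1.57 CPM (-0.63) and Fzd6, of the planar polarity branch, at 11.4 and 7.94 CPM (-0.52). Fzd1 had a log2 ratio of -0.22, with an interval below 0, and Fzd2 one of -0.23, with an interval that includes 0. In luminal-like cells taken alone both were higher in TripleTg (0.50 and 0.58).

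With all UMIs the co-receptors were within the fold, with log2 ratios from -0.91 to 0.51, but with every cell at 5000 UMIs Ror1 (-1.58) and Ror2 (-1.06) were past it downwards. Lrp6 and Lrp5, the co-receptors of the β-catenin branch, were at 36.1 and 29.8 CPM (-0.28, -0.32 to -0.23) and at 13.9 and 11.1 CPM (-0.33, -0.41 to -0.25). Ryk, a pseudokinase receptor, was at 23.1 and 32.8 CPM (0.51, 0.45 to 0.56). Ror2 had 401 and 263 UMIs (-0.45) and Ror1 had 164 and 78 (-0.91, -1.32 to -0.51), and both are tyrosine kinase-like receptors of Wnt5a. The TripleTg level of Ror1, 1.58% of the fibroblast-like one, is read as background. Ror1 and Ror2 were also past the fold in basal-like cells taken alone. In luminal-like cells taken alone Ror2 went the other way, with 125 and 154 UMIs (0.73, 0.38 to 1.08).

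Of the secreted antagonists, Sfrp4 (1 and 68 UMIs, 6.25, 3.72 to 11.6), Sfrp2 (28 and 605 UMIs, 4.60, 4.05 to 5.20) and Sfrp5 (16 and 36 UMIs, 1.33, 0.45 to 2.28) were past the fold upwards in epithelial-like cells. Their TripleTg levels there were 0.264%, 1.63% and 1.06% of their fibroblast-like levels, inside the range of the fibroblast markers, so these, like Wnt2, are read as background, and 4 of the 13 higher members come under this reading. Sfrp2 was uneven, however, and reached 13.8 CPM in a TripleTg luminal-like cluster of 139 cells and 10.5 CPM, on 9 UMIs, in a basal-like one of 23 cells, against 0.823 CPM in the lowest luminal-like cluster, so the reading holds for the pooled class and was not tested in those clusters. In the epithelial-like cells 6 of the 9 fibroblast markers were past the fold upwards as well, although their summed level was 180 CPM in DoubleTg and 184 CPM in TripleTg. Sfrp1 was at 4.94 and 3.25 CPM (-0.60, -0.74 to -0.46), or 1.73% and 0.3165% of its stromal level, inside the pooled ranges. The TripleTg level is read as background. In DoubleTg luminal-like cells, however, Sfrp1 was at 5.19 CPM on 1017 UMIs, and ranged from 0.903 to 24.5 CPM between clusters. Its share of the stromal level there was above that of the highest fibroblast marker (0.389%), so the DoubleTg level is not read as background.

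**Figure D1:**
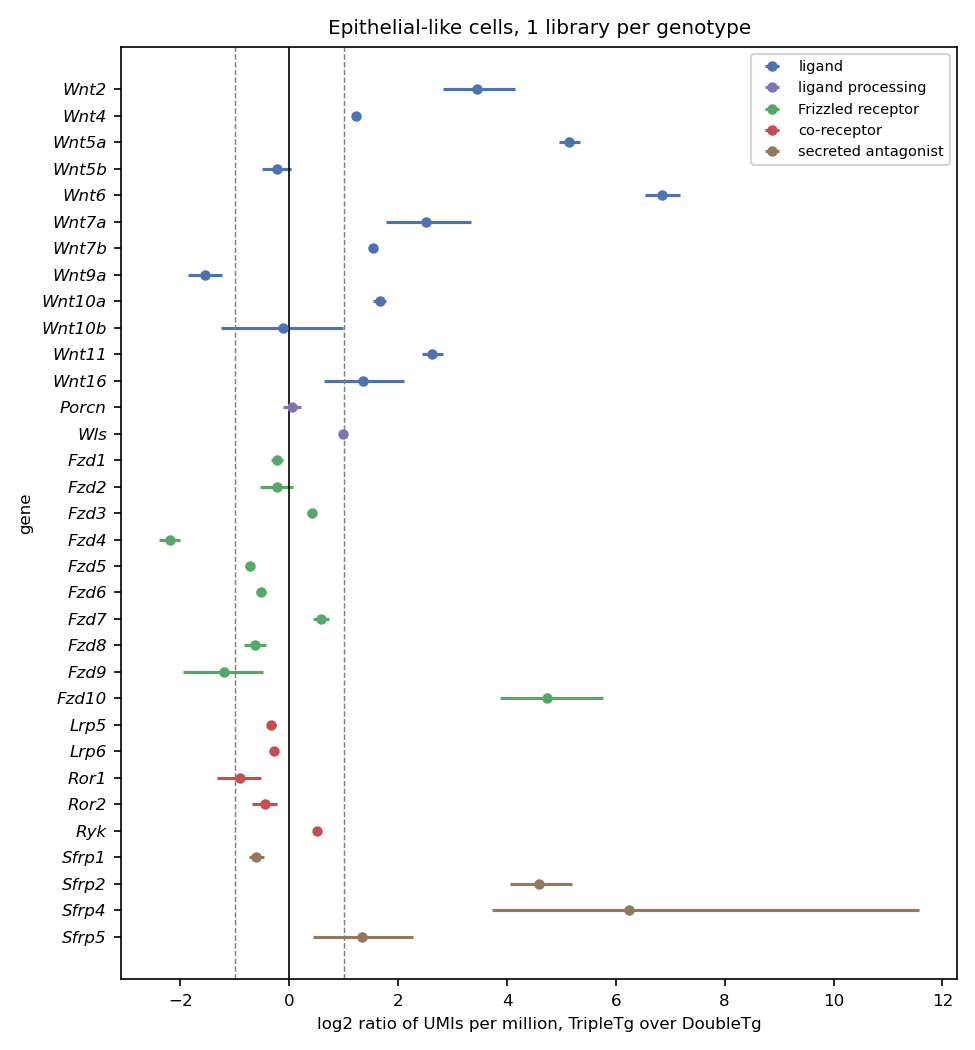
Log2 ratio of CPM, TripleTg over DoubleTg, for each member that reached 30 UMIs over both libraries in epithelial-like cells, ordered by role; the points are the ratios and the bars the 95% intervals for counting error, with 1 library per genotype. Wnt6 and Wnt5a sit at 6.85 and 5.14, Fzd4 at -2.20, and the 5 co-receptors between -0.91 and 0.51.

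Luminal-like and basal-like cells were also read apart, since DoubleTg had 4978 and 1957 of them and TripleTg 4769 and 1187. In luminal-like cells 31 members were compared and 13 were past the fold upwards (18.9% of all 15378 features) and 2 downwards (16.2%), with a median of 0.73 against 0.02 for all features. In basal-like cells 27 were compared, with 8 upwards (17.1% of 12826 features) and 6 downwards (14.1%), and a median of 0.25 against -0.06. Of the 13 luminal-like members, Wnt6, Sfrp2, Ror1, Fzd10, Wnt2, Sfrp4 and Sfrp5 had fewer than 30 DoubleTg UMIs and were compared only through TripleTg. Of the basal-like members, Sfrp2, Fzd10 and Wnt7a among the 8 higher ones had fewer than 30 DoubleTg UMIs, and Ror1, Fzd4 and Wnt9a among the 6 lower ones fewer than 30 TripleTg UMIs. The difference between the classes was not tested. In luminal-like cells 7 of the 9 fibroblast markers were past the fold upwards too, from 35.1 to 194 CPM in sum, and their part in these counts was not tested. Of the 13 higher members, Sfrp2 (1.88% of the fibroblast-like level in TripleTg), Sfrp5 (1.20%), Wnt2 (1.12%), Ror1 (0.992%) and Sfrp4 (0.294%) lay inside the range of those markers (0.141 to 3.08%), so 5 are read as background.

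Wnt6, Wnt5a, Wnt11 and Wnt10a were past the fold upwards in both classes. In DoubleTg basal-like cells Wnt6, Wnt5a and Wnt11 were at 15.8%, 14.9% and 8.27% of their stromal levels, inside the range of the fibroblast markers there (0.0792 to 16.6%). That range is wide, as the same markers reached at most 0.389% in DoubleTg luminal-like cells. These DoubleTg levels therefore cannot be told apart from background by it, and the order of the ratios between the classes is not read. In luminal-like cells Wnt6 went from 0.128 to 36.0 CPM (8.14, 7.58 to 8.77), and in basal-like cells from 1.95 to 102 CPM (5.70, 5.32 to 6.12). Wnt5a had ratios of 5.68 and 4.31, Wnt11 of 4.13 and 1.14, and Wnt10a, a basal ligand in DoubleTg already at 27.6 CPM against 0.357 in luminal-like cells, of 3.5 and 1.13. Wnt4 and Wnt7b were past the fold in luminal-like cells (1.45 and 1.79) and not in basal-like ones (0.32 and 0.57). Wls was past it in both, at 1.04 and 1.23, and reached 214 CPM in TripleTg basal-like cells.

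Several receptors were lower in TripleTg basal-like cells. Ror1 went from 146 UMIs (5.18 CPM) to 11 UMIs (0.387 CPM), a log2 ratio of -3.74 (-4.77 to -2.86), and Ror2 from 9.79 to 2.85 CPM (-1.78). Fzd1 went from 25.4 to 8.24 CPM (-1.62), Fzd2 from 4.04 to 1.66 CPM (-1.29) and Fzd4 from 4.01 to 0.881 CPM (-2.19), while Wnt9a went from 3.54 to 1.02 CPM (-1.80). The summed fibroblast markers were at 1214 CPM in DoubleTg and 267 CPM in TripleTg basal-like cells, and their part in these ratios was not tested. Beside their stromal levels, DoubleTg basal-like cells held Ror1 at 32.8%, Ror2 at 113%, Fzd1 at 31.4% and Fzd2 at 19.0%, each above the highest fibroblast marker there, Dcn at 16.6%. In TripleTg basal-like cells Ror1, at 1.60% of its fibroblast-like level, was inside the range of the fibroblast markers (0.266 to 3.22%), and Fzd4, at 0.844% of its endothelial-like level, inside that of the endothelial markers (0.0758 to 1.39%), and both are read as background there.

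In luminal-like cells Ror1 went the other way, from 13 to 35 UMIs (1.85, 0.90 to 2.90), but its TripleTg level there is among those read as background. Fzd6 differed in sign between the classes, with -0.82 (-0.93 to -0.71) in luminal-like and 0.71 (0.52 to 0.91) in basal-like cells, and neither ratio was past the fold. Fzd1, Fzd2 and Ror2, past the fold downwards in basal-like cells, were higher in TripleTg luminal-like cells but within the fold. Their luminal-like ratios were 0.50 (0.36 to 0.63), 0.58 (0.17 to 0.98) and 0.73 (0.38 to 1.08). Wnt16 and Fzd9 were under the floor in basal-like cells, with 1 and 27 UMIs of Wnt16 and 24 and 2 of Fzd9.

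**Figure D2:**
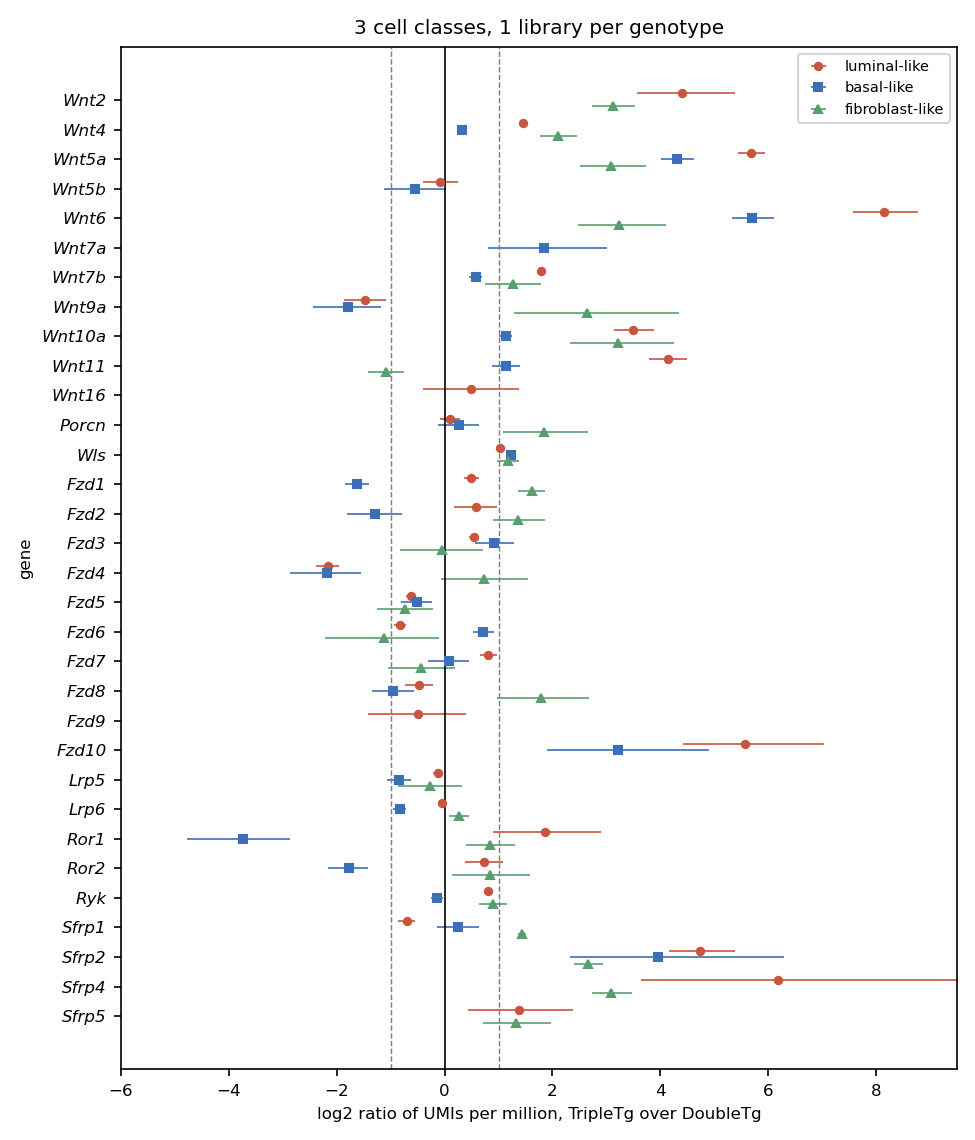
Log2 ratio of CPM, TripleTg over DoubleTg, of each member in luminal-like, basal-like and fibroblast-like cells, with 95% intervals for counting error and 1 library per genotype. Members under 30 UMIs in a class have no point there, and the upper bar of Sfrp4 in luminal-like cells runs past the axis. Wnt6 and Wnt5a are to the right of 0 in every class shown, while Ror1 is at 1.85 in luminal-like and -3.74 in basal-like cells.

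The levels also differed between clusters of 1 class and library. In the 7 TripleTg luminal-like clusters Wnt6 ranged from 15.1 to 72.05 CPM, Wnt5a from 15.4 to 57.0, Wnt10a from 0.386 to 13.5 and Wnt4 from 76.7 to 192. One basal-like TripleTg cluster of 300 cells stood apart, with Wnt6 at 299 CPM, Wnt10a at 131, Wnt5a at 121 and Wls at 280 CPM. The same cluster had Axin2, a feedback target of β-catenin, at 135 CPM, against 55.6 CPM in the basal-like cluster of 776 cells, where Wnt6 was at 23.9 CPM. In DoubleTg luminal-like clusters Wnt4 ranged from 1.27 CPM in a cluster of 490 cells to 91.3 CPM in one of 120 cells.

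The rank of the members was set beside that of Axin2 over clusters, as a description, since clusters of 1 library share their cells' source and their background RNA. Over the 11 TripleTg luminal-like and basal-like clusters Spearman's rho with Axin2 was 0.87 for Fzd10 and 0.63 for Wnt6, and -0.86 for Sfrp1 and -0.62 for Lrp6, with a median of -0.03 over 31 members. Over the 7 luminal-like clusters alone it was 0.96 for Wnt6, 0.86 for Wnt11, 0.82 for Wnt10a and 0.79 for Wnt5a, and -0.89 for Fzd6 and -0.86 for Lrp6. Over the 13 DoubleTg clusters, where Axin2 was lower, it was 0.89 for Wnt6 and 0.87 for Wnt10a, with a median of 0.34 over 25 members. The DoubleTg value of Wnt6 rests on 80 UMIs, of which 55 were in basal-like cells, and that of Wnt10a on 850. The ranks of several genes depended on the clusters taken: Wnt10a and Wnt11 were at -0.03 and 0.18 over the 11 TripleTg clusters, and Lrp6 was at 0.39 over the 13 DoubleTg clusters.

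**Figure D3:**
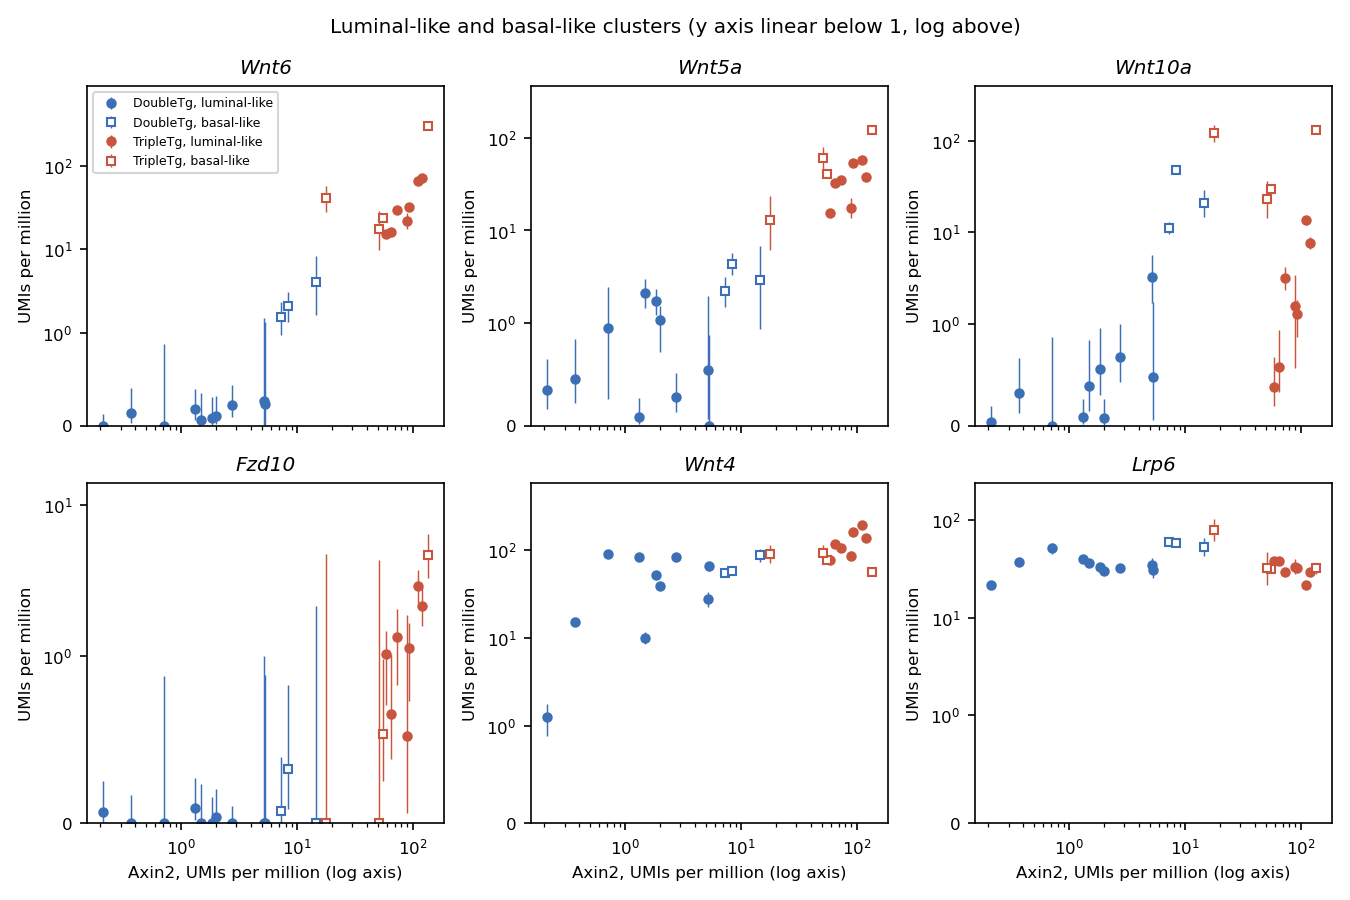
Level of Axin2 (x axis, CPM, log scale) and of Wnt6, Wnt5a, Wnt10a, Fzd10, Wnt4 and Lrp6 (y axis, CPM, linear below 1 and log above) in each luminal-like (circles) and basal-like (open squares) cluster of DoubleTg (blue) and TripleTg (red), with bars for the 95% counting interval. The TripleTg basal-like cluster with Axin2 at 135 CPM has the highest Wnt6, at 299 CPM, and Lrp6 shows no such range.

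Across the cell classes of a library, the class with the highest point estimate of each member is given as a description. Most of the classes ranked were not epithelial, and the same share over all features was not computed. Of the 60 pairs of a member and a library with enough UMIs to place, 51 had a class other than an epithelial one on top. Several of these tops, such as those of Fzd5, Ror2 and Lrp5 in DoubleTg and of Fzd3 and Wnt6 in TripleTg, overlap an epithelial class in their intervals, and some are classes of under 100 cells. Wnt4 and Wnt7b were highest in epithelial classes, the seminal vesicle-like one in DoubleTg (62.4 and 43.0 CPM, where that of Wnt4 overlaps basal-like cells at 58.2 and fibroblast and smooth muscle-like cells at 55.3) and the luminal-like one in TripleTg. In TripleTg Wnt7b was at 96.2 CPM in luminal-like cells, ahead of seminal vesicle-like (54.1) and basal-like cells (50.8), which do not differ from each other beyond counting error, and Wnt4 at 128 CPM in luminal-like cells, ahead of pericyte-like cells (117), whose interval overlaps. Wnt10a was basal in both libraries, at 27.6 CPM in DoubleTg and 60.5 CPM in TripleTg.

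Sfrp2, Sfrp4, Wnt2, Fzd1 and Fzd2 were highest in a stromal class in both libraries. Wnt2 was at 198 CPM in the DoubleTg fibroblast and smooth muscle-like class and 13.4 in the fibroblast-like class, and at 117 CPM in TripleTg fibroblast-like cells, against at most 2.93 CPM in the other DoubleTg classes. Sfrp1 was at 379 CPM in DoubleTg and 1027 in TripleTg fibroblast-like cells, and at 521 and 307 CPM in the Schwann-like cells, of which there were 38 and 25. Sfrp5 was highest in Schwann-like cells in both libraries, at 255 and 325 CPM. Lrp6 was highest in fibroblast-like cells, at 87.4 CPM in DoubleTg, where the fibroblast and smooth muscle-like class overlapped at 78.1, and at 105 CPM in TripleTg, and Ryk was at 40.7 and 75.9 CPM in them.

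Endothelial-like cells held the highest Fzd4 level, 254 CPM in DoubleTg (233 to 276) and 104 CPM in TripleTg (92.1 to 118), with no class overlapping, and the highest Fzd6 level, 43.2 and 43.8 CPM. The Fzd4 ratio in them was -1.28 (-1.50 to -1.07), in the same direction as in epithelial-like cells. Endothelial markers stood in epithelial-like cells at 0.0835% of their endothelial level in DoubleTg and 0.304% in TripleTg, with a highest marker of 0.202% and 0.816%, while epithelial Fzd4 stood at 2.48% and 1.31%, above these. Wnt6 in TripleTg endothelial-like cells rested on 36 UMIs in 7 of 242 cells, against 1 UMI in DoubleTg.

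Wnt11 was at 68.0 CPM in DoubleTg dendritic-like cells, second to the fibroblast and smooth muscle-like class (108 CPM), and at 74.8 CPM in TripleTg ones, above every other named class, on 47 cells. Fzd7 in macrophage-like cells went from 35 UMIs (6.84 CPM) to 148 UMIs (28.2 CPM), a log2 ratio of 2.04 (1.504 to 2.62), and stood at 654% of the epithelial level in TripleTg, against at most 16.1% for an epithelial marker. The DoubleTg class joined a cluster of 220 cells with a median of 1058 UMIs and Ptprc in 20.9% of them, where Fzd7 was at 3.17 CPM, and one of 275 cells with Ptprc in 85.5%, where it was at 8.98 CPM, while the TripleTg class was 1 cluster with Ptprc in 89.4%, so unlike clusters are set against each other. Ryk had 48 and 17 UMIs in the same cells (-1.53, -2.43 to -0.71), but 38 of the DoubleTg UMIs came from the cluster of 220 cells, and the TripleTg level was 9.87% of the epithelial one, inside the range of the epithelial markers there, and is read as background. Wnt5a was highest in pericyte-like cells of TripleTg, at 164 CPM, and Wnt5b in those of DoubleTg, at 27.7 CPM, but this class held 65 and 98 cells and was not compared between libraries. In DoubleTg its 10 leading genes hold 1 pericyte marker (Rgs5) and 2 smooth muscle markers (Myh11 and Acta2), so its name there is uncertain. Wnt6 had its highest TripleTg level in 25 Schwann-like cells, 171 CPM (103 to 268), which overlaps that of basal-like cells.

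**Figure D4:**
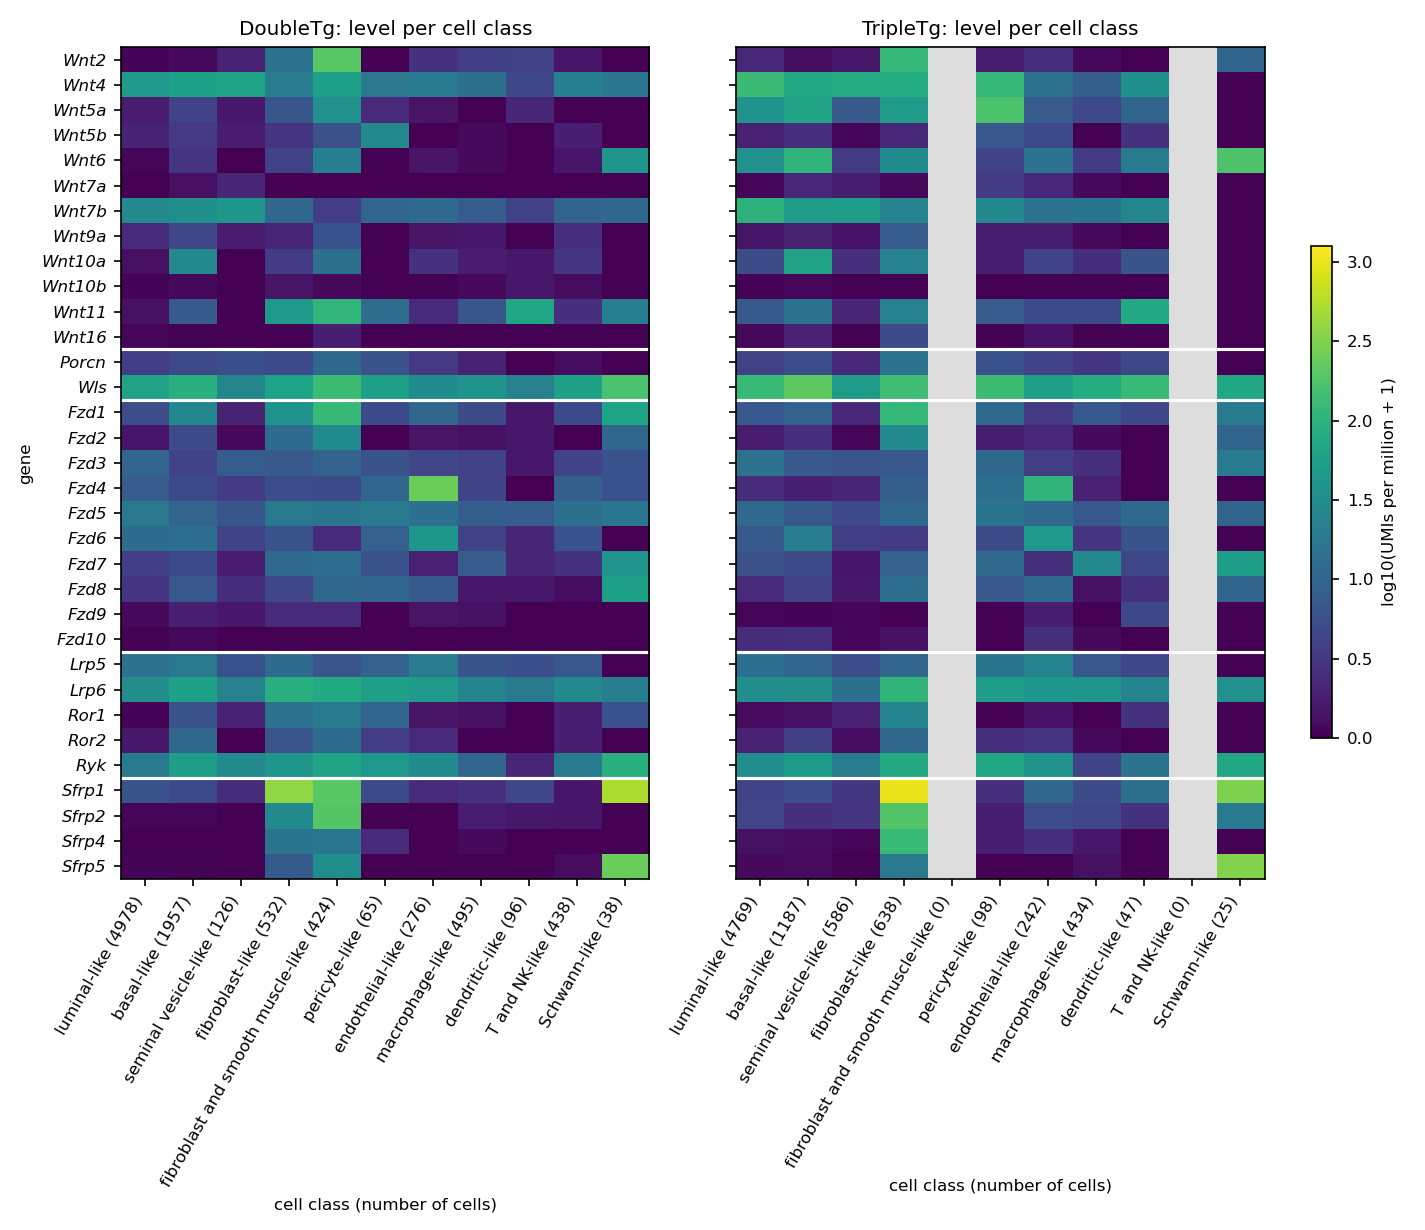
Level of the 33 members compared in epithelial-like cells (rows; colour, log10 of CPM plus 1) in each named cell class (columns, with the number of cells) of DoubleTg and TripleTg; white lines part the roles and grey columns mark classes with no cells. Wnt4 and Wnt7b are bright in the epithelial columns, Fzd4 in the endothelial-like column (254 and 104 CPM) and Wnt2 and Sfrp1 in the stromal columns.

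In fibroblast-like cells, 7 ligands, both ligand-processing genes, 3 Frizzled genes and all 4 antagonists were past the fold upwards in TripleTg, but this rests on which stromal clusters are set against each other. The class held 1 DoubleTg cluster of 532 cells and 2 TripleTg clusters of 510 and 128 cells. Between them 27 members were compared, 16 were past the fold upwards (13.2% of all 10822 features) and 2 downwards (6.66%), with a median of 1.33 against 0.13 for all features. Of the 16, Wnt6, Wnt10a, Porcn, Wnt5a, Wnt9a and Fzd8 had fewer than 30 DoubleTg UMIs and were compared only through TripleTg, so these counts and the median describe the members. With the 424 DoubleTg fibroblast and smooth muscle-like cells added, 28 members were compared, 9 were past the fold upwards (8.56% of 11627 features) and 2 downwards (5.75%), with a median of 0.53 against 0.06.

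The added cluster was closer to the larger TripleTg cluster than the DoubleTg fibroblast-like cluster was in several members. Wnt2 was at 198 CPM in it and at 13.4 CPM in the DoubleTg fibroblast-like cluster, against 147 and 49.7 CPM in the larger and the smaller TripleTg cluster. Sfrp2 was at 188 and 28.6 CPM against 227 and 77.9 CPM, and the secreted antagonist Wif1 at 1239 and 70.4 CPM against 1066 and 5.39 CPM. Sfrp1 and Sfrp4 marked the smaller TripleTg cluster, with 2480 and 356 CPM, against at most 379 and 21.8 CPM in the others. The log2 ratio of Wnt2 was 3.12 without the added cluster and 0.09 with it, and that of Sfrp5 was 1.33 without it and -0.34 with it.

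The members past the fold upwards with and without the added cluster included Wnt6 (15 and 167 UMIs in fibroblast-like cells, 3.23, and 1.33 with the cluster added), Wnt5a (26 and 262 UMIs, 3.09 and 1.19), Wnt10a (11 and 121 UMIs, 3.22 and 1.51) and Sfrp4 (67 and 676 UMIs, 3.09 and 3.05). Sfrp1 (1.44 and 1.84), Wnt9a (2.64 and 1.12), Wnt4 (2.11 and 1.12), Porcn (1.835 and 1.003) and Wnt7b (1.26 and 1.95) were the others. Without the cluster Wnt2 and Sfrp5 and 5 more members were past the fold as well, with Sfrp2 at 2.66, Fzd8 at 1.78, Fzd1 at 1.61, Fzd2 at 1.37 and Wls at 1.18. Wnt11 was past the fold downwards both ways, from 214 to 120 UMIs in fibroblast-like cells (-1.08, and -1.82 with the cluster added), as was Fzd6 without it (24 and 13 UMIs, -1.13, with a TripleTg level at 30.4% of the epithelial one, inside the epithelial marker range, and read as background) and Wnt5b with it (-1.42).

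Epithelial markers were present in the stromal cells too. The epithelial markers stood in fibroblast-like cells at 38.9% of their epithelial level in DoubleTg (15.6 to 41.7%) and 30.3% in TripleTg (10.8 to 33.1%). Wnt7b, at 33.5% and 27.7%, was inside both ranges and is read as background. Wnt4 was inside it in DoubleTg, at 39.2%, and above it in TripleTg, at 72.2%, and Wnt6, Wnt5a and Wnt10a were above it in TripleTg, at 77.4%, 135% and 192%. Fzd3, Fzd4, Fzd5, Fzd7, Lrp5, Lrp6, Ror1, Ror2 and Ryk were compared in this class and were within the fold, between -0.73 and 0.90.

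Luminal-like cells with and without a UMI of the MET transgene were also compared within each library. In DoubleTg 4146 luminal-like cells had a UMI of hMETtg and 832 had none, and in TripleTg 1651 and 3118. hMETtg was at 495 CPM in DoubleTg luminal-like and 187 CPM in DoubleTg fibroblast-like cells, and at 26.2 and 46.3 CPM in the TripleTg ones. A UMI of hMETtg is therefore no sure sign that a cell expresses it, least of all in TripleTg. The cells are compared by the UMI only. In DoubleTg 23 members were compared, of which Fzd9 was past the fold upwards (30 and 2 UMIs, 1.12, with an interval of -0.86 to 4.23), where 4.75% of all features were, and Ror2 (-1.42) and Wnt10a (-1.25) downwards, where 4.11% were. In TripleTg 28 members were compared, with 0 upwards (0.843% of all features) and only Ror1 downwards (6 and 29 UMIs, -1.90), where 1.22% were. Positive cells were deeper, with medians of 37000.5 and 33822 UMIs against 24423.5 and 22810, and at 5000 UMIs per cell the members named above fell under the floor of 30 UMIs in the library they are named for and could not be compared there. Their few UMIs there went the same way for Wnt10a (5 and 3 UMIs in DoubleTg, -1.82), Ror2 (12 and 6 UMIs, -1.55) and Ror1 (0 and 9 UMIs in TripleTg). Of the TripleTg ligands, Wnt10a was at 2.72 CPM with hMETtg and 5.06 CPM without (-0.89, -1.16 to -0.63), but with every cell at 5000 UMIs at 3.92 and 4.34 CPM on 32 and 65 UMIs (-0.15, -0.81 to 0.48), so the difference was not held at matched depth. Wnt7b was at 114 and 82.3 CPM (0.47, 0.42 to 0.52, and 0.40 at 5000 UMIs). Wnt6 was at 32.6 CPM with hMETtg and 38.5 CPM without (-0.24), Wnt5a at 40.1 and 34.5 CPM (0.22) and Wnt4 at 144 and 117 CPM (0.30). In DoubleTg Wnt4 was at 49.9 CPM with hMETtg and 27.6 CPM without, on 8539 and 685 UMIs (0.86, 0.74 to 0.97). At 5000 UMIs per cell that ratio was 0.79 (0.51 to 1.085), and neither was past the fold.

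The other genes of the pathway were read from a list of 49, of which 44 were compared in epithelial-like cells. On it 16 were past the fold upwards and 3 downwards, where 17.9% and 15.4% of all features were, with a median log2 ratio of 0.45. Of the 16, Dkk1, Dkk2, Sostdc1, Lgr6, Adgra2 and Nkd2 had fewer than 30 DoubleTg UMIs and were compared only through TripleTg, so the counts and the median describe the list. The 5 highest were Dkk2 (24 and 15930 UMIs, 9.54), Wif1 (170 and 38750 UMIs, 7.995), Dkk1 (1 UMI in DoubleTg, 0.952 CPM in TripleTg, 7.77), the R-spondin receptor Lgr6 (6 and 748 UMIs, 7.12) and Nkd2, an inhibitor of the Dishevelled proteins (23 and 1147 UMIs, 5.80). Dkk1 and Dkk2 bind Lrp6 and Wif1 binds the ligands themselves. The 5 lowest were the repressor Tcf7l1 (1690 and 442 UMIs, -1.77), the co-repressors Tle4 (-1.22), Tle2 (-0.99) and Tle3 (-0.97), and the R-spondin Rspo3 (98 and 42 UMIs, -1.06). Dkk2, Wif1, Dkk1 and Lgr6 had larger ratios than any of the 33 members compared. The intervals of Dkk1 (5.275 to 13.08) and Lgr6 (5.996 to 8.575) overlap that of Wnt6 (6.53 to 7.18), however. The wide interval of Sfrp4 (3.72 to 11.6) overlaps those of Dkk2, Wif1, Dkk1 and Lgr6.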

How the data were processed

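The deposited matrices hold raw UMI counts per gene and cell, made by the authors with Cell Ranger 6.0.2 on mm10 per the submitters' processing notes; the header of the DoubleTg file names a different Cell Ranger release and that of the TripleTg file names none. A cell was kept if more than 200 and fewer than 7000 genes were detected in it and less than 15% of its UMIs were mitochondrial. The TripleTg file held such cells only, and the limits left more DoubleTg cells than the study states. The members and gene lists were chosen with earlier results of these data known.

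The 2 libraries were clustered separately in scanpy 1.11.5 (2000 variable genes with the members and pathway genes taken out, 20 principal components, 15 neighbours, Leiden resolution 1). Clusters were named from marker lists by a scoring rule set after the clusters were seen, so classes may differ from the study's. No doublets were removed. UMIs were summed per class and library, and CPM, exact Poisson intervals, exact Clopper-Pearson intervals for shares and the log2 ratio with its conditional binomial interval were computed from the sums. UMIs of near-identical genes cannot be told apart by 3′ tags. Genes named are the members and, of the pathway list, the 5 highest and 5 lowest ratios, with Ctnnb1 and the transgenes as checks of the labels. Axin2, Wif1 in stromal clusters and Pbsn were named beside this rule, with their values known. The calculation was tested on simulated data. Alternatives included thinning every cell to 5000 UMIs, TMM scaling with edgeR 4.0.16, other floors, other Leiden resolutions, and removal of cells marked by Scrublet.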

Additional observations from a re-analysis of the deposited data

Results flagged for a closer look

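For 5 members the ratio of TripleTg over DoubleTg was past the fold in opposite directions in different cell classes, and with 1 library per genotype the difference between classes was not tested. Ror1 had log2 ratios of 1.85 in luminal-like and -3.74 in basal-like cells. Its TripleTg luminal-like level was 0.992% of the fibroblast-like level, inside the range of the fibroblast markers there, and the summed fibroblast markers of basal-like cells were at 1214 CPM in DoubleTg and 267 CPM in TripleTg. Fzd1 had -1.62 in basal-like and 1.61 in fibroblast-like cells, and Fzd2 had -1.29 and 1.37. Wnt11 had 4.13 in luminal-like, 1.14 in basal-like and -1.08 in fibroblast-like cells. Its DoubleTg basal-like level, 8.27% of the stromal one, cannot be told apart from background by the wide range of the fibroblast markers there (0.0792 to 16.6%). Wnt9a had -1.47 in luminal-like, -1.80 in basal-like and 2.64 in fibroblast-like cells, the last on 5 and 37 UMIs. With the DoubleTg fibroblast and smooth muscle-like cells added, the fibroblast ratios were 0.53 for Fzd1, 0.45 for Fzd2, -1.82 for Wnt11 and 1.12 for Wnt9a, so Fzd1 and Fzd2 were no longer past the fold.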

How the results depend on the processing

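No paired analysis was possible because there is 1 library per genotype, and no library could be left out. With the epithelial-like class cut to its basal-like cells, 8 members were past the fold upwards and 6 downwards, where 17.1% and 14.1% of all features were. In epithelial-like cells with every cell at 5000 UMIs, 5 (Ror1, Ror2, Fzd4, Fzd8 and Wnt9a) were downwards, where 14.5% of all features were. The members' median log2 ratio was 0.109 at 5000 UMIs, 0.233 with a floor of 100 UMIs, 0.726 in luminal-like cells only, 0.247 in basal-like cells only, 0.537 in hMETtg-positive cells only and 0.516 without the seminal vesicle-like cells. The median of all features was -0.16, -0.11, 0.02, -0.06, -0.11 and 0.01 under these settings. The pathway list's median was 0.532 with a floor of 10 UMIs, 0.536 in luminal-like, 0.856 in basal-like and 0.56 in hMETtg-positive cells only and 0.57 without the seminal vesicle-like cells, and 5 of its genes were past the fold downwards in hMETtg-positive cells only, where 16.4% of all features were. In fibroblast-like cells 9 members were past the fold upwards with no limits on cells, at Leiden resolution 0.5 and with the fibroblast and smooth muscle-like cells added, where 8.40%, 8.63% and 8.56% of all features were, and 1 (Wnt11) downwards with a floor of 100 UMIs, without cells marked by Scrublet and with the Scrublet threshold of DoubleTg in both libraries, where 5.49%, 5.47% and 5.80% of all features were. Sfrp5 changed sign there, to -0.291 with no limits, -0.337 at resolution 0.5 and -0.34 with the added cells. Of the members compared between hMETtg-positive and negative luminal-like cells, 0 were past the fold in DoubleTg and 0 in TripleTg at 5000 UMIs, where Wnt10a, Ror2 and Fzd9 in DoubleTg and Ror1 in TripleTg fell under the floor and were not compared, and 3 (Ror1, Sfrp2 and Sfrp4) were past it downwards in TripleTg with at least 2 hMETtg UMIs, where 2.17% of all features were. The cause was not tested. Leaving out the seminal vesicle-like cells, adding the fibroblast and smooth muscle-like cells and using the DoubleTg Scrublet threshold in both libraries were chosen after seeing the data, the last because Scrublet marked 266 DoubleTg and 0 TripleTg cells. Genes with few UMIs are limited by depth.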
